A study of Mus musculus with 12 samples.

Results

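Dual-specificity MAP kinase phosphatases remove phosphate from both the threonine and the tyrosine that switch a MAP kinase on, and so end signals that pass through ERK, JNK and p38. Most of their genes are themselves switched on by MAP kinase signals, which makes them a negative feedback. In T cells they follow signals of the T cell receptor and cytokines, and they limit proliferation and cytokine production. Members fall into nuclear enzymes that are induced early (Dusp1, Dusp2, Dusp4, Dusp5), cytoplasmic enzymes that prefer ERK (Dusp6, Dusp7) and enzymes that prefer JNK and p38 (Dusp8, Dusp10, Dusp16). These 9 genes were taken by symbol, with earlier results of these data known, from a table of 49315 genes, of which 30192 had a count in at least 1 library. All 9 had counts in each of the 12 libraries.

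RNA was sequenced from T cells that were isolated from spleens by magnetic negative selection, which leaves the T cells unlabelled and can leave other cells behind. Donors were 12-week-old male mice, either wild type (WT) or with the miR-214 gene deleted (miR-214-/-), and all carried an osmotic minipump for 14 days. The pump held vehicle (sham) or Ang II (angiotensin II, a peptide that raises blood pressure) at 490 ng/kg per day, which gave 4 groups, namely WT sham, WT Ang II, miR-214-/- sham and miR-214-/- Ang II, with 3 mice each and 1 library per mouse. The deletion and the infusion both act on the whole animal and not on T cells alone, and the sources used here describe no stimulation of these T cells after isolation. The RNA came from poly(A) libraries, in which Mir214 had 0 counts in every library of both genotypes, where 0 allows up to 3 counts a library. The counts therefore do not check the genotype labels.

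The libraries held between 21126874 and 29605988 counts. The summed level of 12 T cell markers lay between 3601 and 6216 CPM in every library, where CPM is the count scaled to a common library total after TMM, edgeR's adjustment of those totals. Markers of other blood cells were present as well, and 0 genes of the lists for red-cell precursors, neutrophil precursors, basophils and mast cells, megakaryocytes, macrophages and B cells were at 0 counts in any library. After Ang II in WT, 9 of 9 neutrophil precursor and 8 of 8 cell cycle markers were called higher. So were 6 of 11 tested red-cell precursor, 5 of 6 basophil and mast cell and 2 of 6 megakaryocyte markers. Of macrophage and B cell markers, 1 of 8 and 0 of 6 were called higher. Among all genes tested in WT this share was 7.01%. Of the 12 T cell markers 0 were called, but all 12 had a log2 fold change below 0 (median -0.50). An adjusted p under 0.05 from edgeR was reached by 10 of these 12, against 18.8% of all genes tested. In bulk RNA a smaller share of a cell type and less RNA per cell cannot be told apart. The part of these other cells in the results on the phosphatases was not tested, and their values are set beside those of Dusp8 alone.

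Promoters of 8 members were matched in RefSeq (build GRCm38.p6), each with 250 bases before and 50 after the start of the transcript. They were searched on both strands for letters bound by factors that MAP kinases switch on, and for the GATA motif of red-cell and mast cell factors. The letters were TGACGTCA for the cAMP response element (CRE), TGANTCA for AP-1, GCGTGGGCG for EGR and AGATAA for GATA, besides the CArG box of serum response factor, and no 2 of these overlapped in a printed sequence. The promoters with a match are shown because they include that of Dusp8, the member with the largest change in these data. The capitals mark the matches. Dusp8 (chr7:142095235-142095534, minus strand) had a CRE at -107 and another at -63 from the start, Dusp1 (chr17:26508423-26508722, minus strand) had a CRE at -143, and Dusp5 (chr19:53528895-53529194, plus strand) had adjacent CArG boxes at -82 and -72.
Dusp8: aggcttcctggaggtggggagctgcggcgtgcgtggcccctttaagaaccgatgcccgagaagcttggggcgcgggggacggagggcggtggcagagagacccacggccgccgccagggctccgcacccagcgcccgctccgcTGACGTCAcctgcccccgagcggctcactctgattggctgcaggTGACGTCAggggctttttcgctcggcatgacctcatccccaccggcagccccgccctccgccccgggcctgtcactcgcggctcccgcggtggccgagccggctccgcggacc
Dusp1: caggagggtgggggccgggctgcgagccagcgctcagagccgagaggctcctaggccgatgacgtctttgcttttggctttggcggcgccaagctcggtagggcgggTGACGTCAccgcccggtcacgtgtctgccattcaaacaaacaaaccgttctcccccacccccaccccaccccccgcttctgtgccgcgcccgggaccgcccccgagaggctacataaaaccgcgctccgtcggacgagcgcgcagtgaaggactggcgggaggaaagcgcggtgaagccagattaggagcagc
Dusp5: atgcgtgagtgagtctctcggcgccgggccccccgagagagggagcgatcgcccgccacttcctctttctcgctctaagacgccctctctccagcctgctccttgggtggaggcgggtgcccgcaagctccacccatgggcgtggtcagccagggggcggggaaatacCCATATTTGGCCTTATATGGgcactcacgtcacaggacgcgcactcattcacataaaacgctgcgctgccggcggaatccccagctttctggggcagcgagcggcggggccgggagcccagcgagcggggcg
Of 32817 promoters of this length, 1.79% held the CRE, 1.63% a CArG box, 7.81% AP-1, 0.612% EGR and 11.2% GATA. None of the 8 promoters held AP-1, EGR or GATA in these letters. A match is a description of letters and not a site of binding, and no match says only that these letters are not in this window.

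The deleted miRNA, mature miR-214-3p (22 bases, chr1:162223438-162223459, plus strand, GRCm38.p6), is shown with its seed, bases 2 to 8 from the 5′ end, in capitals because the genotype comparison turns on it.
miR-214-3p: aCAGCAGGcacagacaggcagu
Pairing with this seed needs CCTGCTG in a transcript. In the longest annotated 3′ UTR of each gene (GENCODE M21, GRCm38) this site was present in 1 of the 9 members, Dusp7, against 19.3% of 21013 genes. The site lies at base 70 of the 1778 bases of that 3′ UTR (chr9:106374001-106374030, plus strand, printed with its flanks), and the base after it is C, so that it is not the longer site with A at that place, which 4.72% of genes held.
Dusp7: tggtgggggccctagCCTGCTGcccctctg
Dusp8, Dusp5 and Dusp16, whose values differed most between the genotypes after Ang II, had 0 such sites in 3′ UTRs of 2370, 1109 and 2416 bases.

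Levels were compared between genes only per length, as CPM per kb of exon. Dusp2, an early-induced nuclear phosphatase that is abundant in T cells, was the highest at 73.9 ± 12.7 CPM per kb (mean ± SD over 12 libraries). Dusp1, the phosphatase of stress and growth signals, followed at 39.8 ± 12.6 and Dusp10, which acts on JNK and p38, at 25.1 ± 4.43 CPM per kb. Then came Dusp5 at 13.3 ± 2.00, Dusp7 at 11.6 ± 2.11 and Dusp6 at 10.5 ± 1.84 CPM per kb, 3 phosphatases of ERK. These 3 did not separate, since Dusp5 was above Dusp7 in 10 and Dusp7 above Dusp6 in 7 of 12 libraries. Dusp4 was at 2.62 ± 0.52, Dusp16 at 0.829 ± 0.204 and Dusp8 at 0.398 ± 0.50 CPM per kb. Dusp16 was above Dusp8 in 10 of 12 libraries, and the 2 exceptions were WT Ang II libraries 2 and 3. Between Dusp10 and Dusp5, Dusp6 and Dusp4, and Dusp4 and Dusp16 the ranges over the 12 libraries did not overlap. The other 8 members varied between their lowest and highest library by 1.57 to 2.67 times, against 104 times for Dusp8.

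**Figure D1:**
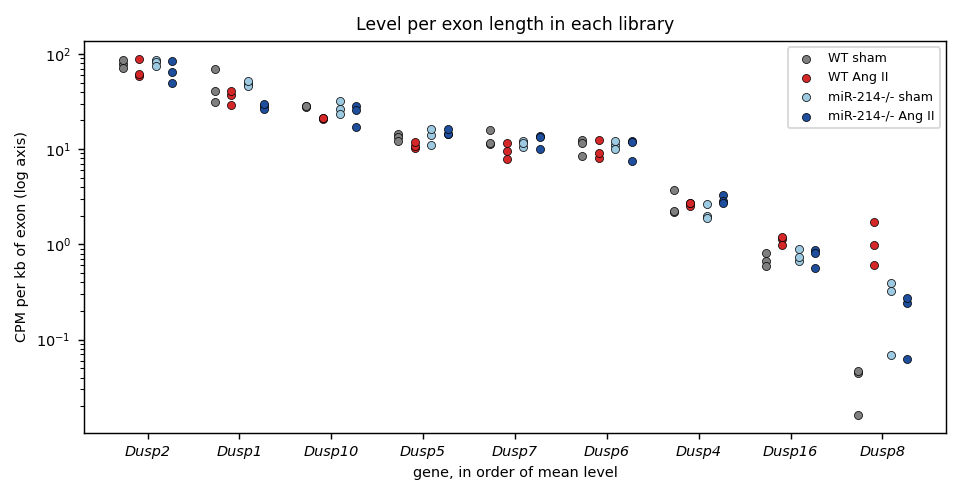
CPM per kb of exon on a log axis for the 9 phosphatase genes, in order of their mean level, with 1 point per library and the 4 groups in separate columns. Dusp2 lies highest at 73.9 and Dusp8 lowest at 0.398 CPM per kb on average, and the columns of Dusp8 are the ones spread furthest apart.

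The first comparison asked what 14 days of Ang II changed in WT T cells. Of the 9 members 1 was called, Dusp8, which prefers JNK and p38 and was close to absent in WT sham. Calls required 2 things, an adjusted p from edgeR's quasi-likelihood test of under 0.05 and a log2 fold change beyond 1 or -1. Among all 16012 genes tested 7.01% were called higher and 0.294% lower. An adjusted p under 0.05 without a limit on the fold was reached by 3 members (Dusp8, Dusp10 and Dusp16, all in the JNK and p38 class) and by 18.8% of all genes. The median log2 fold change of the 9 members was -0.14, against -0.02 over all genes tested.

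Dusp8 (ENSMUSG00000037887, chromosome 7, 142079490 to 142095843 of GRCm38, minus strand) had 5, 2 and 5 counts in the 3 WT sham libraries and 85, 232 and 114 in the WT Ang II libraries. On the CPM scale these were 0.218, 0.0793 and 0.227 in sham and 2.98, 8.27 and 4.82 after Ang II. The groups did not overlap, and the lowest Ang II library was above every library of the other 3 groups. Dusp8 rose by a log2 fold change of 4.94 (standard error 0.54, adjusted p = 0.00296 from edgeR). The ratio of the scaled counts of the groups was 31.4 (12 against 431 counts, 95% exact interval 17.8 to 61.3, which covers counting error only). The rise remained in each of the 6 fits that left out 1 library. Its log2 fold change in them was between 4.48 and 5.23, with adjusted p-values between 0.000628 and 0.0225 from edgeR. Its exons share bases with Gm32786 on the opposite strand, and the strand setting of the counting was not stated, so reads of these 2 genes may not be told apart.

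The other members of this class moved less and in opposite directions. Dusp10, a phosphatase that restrains JNK in T cells, was at 87.2, 84.7 and 86.6 CPM in WT sham and at 62.6, 63.8 and 64.5 CPM in WT Ang II. Both groups were tight, with a coefficient of variation of 1.48% and 1.51%, and they did not overlap. Its log2 fold change of -0.42 (standard error 0.06, adjusted p = 0.00587 from edgeR) was below the limit on the fold. In 1 fit over all 12 libraries the adjusted p from edgeR was 0.0791. The 12 T cell markers had a median log2 fold change of -0.50 in the same comparison. Their part in the change of Dusp10 was not tested. Dusp16, which binds JNK and p38, was at 6.36, 5.19 and 4.64 CPM in WT sham and at 8.95, 9.37 and 7.62 CPM in WT Ang II. These groups did not overlap either, and Dusp16 had a log2 fold change of 0.70 (standard error 0.18, adjusted p = 0.0382 from edgeR), again below the limit on the fold. Leaving out any 1 of the 6 libraries put the adjusted p of Dusp16 between 0.0559 and 0.112.

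None of the 4 nuclear phosphatases was called in WT. Dusp1 (ENSMUSG00000024190) was at 231, 134 and 103 CPM in WT sham and at 95.6, 123 and 136 CPM in WT Ang II, so that the groups overlapped. The highest value was that of WT sham replicate 1, and without it the log2 fold change of -0.38 (adjusted p = 0.392 from edgeR) became 0.02. Dusp1 shares exon bases with Ergic1 on the opposite strand. Dusp5 (ENSMUSG00000034765), which acts on ERK in the nucleus, was at 36.0, 33.2 and 30.1 CPM in WT sham and 25.5, 26.5 and 29.3 CPM in WT Ang II. These groups were apart, with a log2 fold change of -0.27 that missed the threshold (adjusted p = 0.132 from edgeR). Dusp2 and Dusp4 overlapped between the groups, with log2 fold changes of -0.14 and -0.02.

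The cytoplasmic ERK phosphatases overlapped between the WT groups too. Dusp6, which binds ERK, was between 26.5 and 38.6 CPM in sham and between 25.0 and 39.1 CPM after Ang II, with a log2 fold change of -0.10. Dusp7 was between 38.4 and 53.7 CPM in sham and between 26.6 and 38.6 CPM after Ang II, with a log2 fold change of -0.40 (adjusted p = 0.166 from edgeR). In all, 2 members had every WT Ang II library above every WT sham library (Dusp8, Dusp16), which 19.1% of all genes did, and 2 had every one below (Dusp5, Dusp10), which 22% of all genes did. Their counts were thus close to what these libraries show over all genes.

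**Figure D2:**
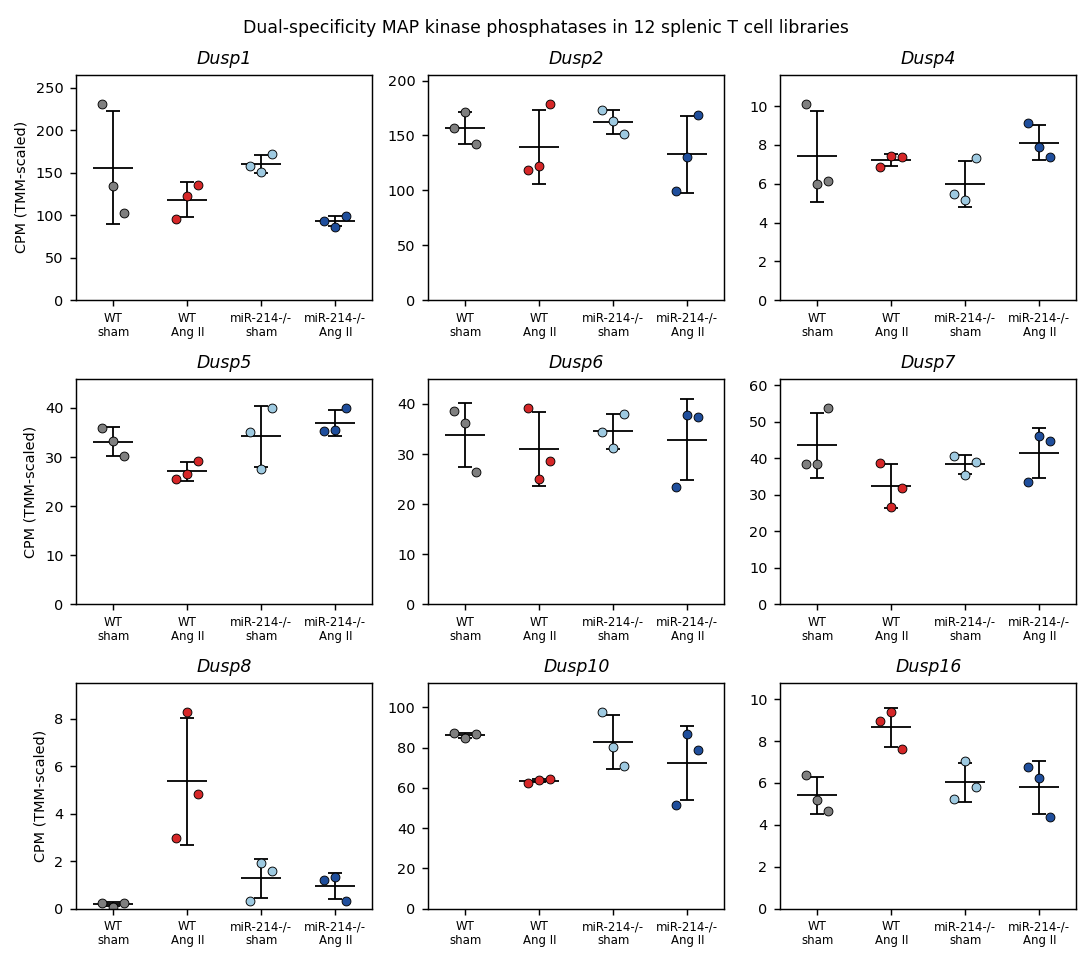
CPM of each of the 9 genes in the 12 libraries by group, each panel on a linear axis from 0, with points for mice and black bars for the mean and the SD of 3 mice. Dusp8 stands near 0 in WT sham and between 2.98 and 8.27 CPM in WT Ang II, while in the panels of Dusp2, Dusp6 and Dusp7 the Ang II and sham groups of each genotype overlap.

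The same infusion was then compared with sham in miR-214-/- T cells, which have no library in common with the WT comparison. Of 15937 genes tested 0% were called by edgeR (0 genes, with 1939 at an unadjusted p under 0.05, and 51 called by DESeq2), and 0 of 9 members were called by either tool, with 1 member, Dusp1, at an unadjusted p under 0.05, which 12.2% of all genes reached. The median log2 fold change of the members was -0.07, against 0.03 over all genes tested.

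Dusp1 had the clearest separation among the members in miR-214-/- mice. It was at 158, 151 and 172 CPM in miR-214-/- sham and at 93.3, 86.5 and 99.0 CPM in miR-214-/- Ang II. The groups did not overlap and each was tight, with a coefficient of variation of 6.74% and 6.72%. Its log2 fold change was -0.78 (standard error 0.08), with an unadjusted p of 3.12e-05 and an adjusted p = 0.149 from edgeR, a value that 5 genes of that fit shared as the smallest adjusted p. DESeq2's Wald test gave the same size with an adjusted p of 2.85e-08, which is under 0.05 while the change stays below the limit on the fold. edgeR without a filter on low counts gave an adjusted p of 0.0263, and with a replicate block 0.708. Dusp4, which acts on ERK and JNK in the nucleus, had every miR-214-/- Ang II library (9.11, 7.88 and 7.37 CPM) above every miR-214-/- sham library (5.48, 5.15 and 7.33 CPM). Its log2 fold change of 0.44 did not pass (adjusted p = 0.423 from edgeR). Groups apart in this way were found for 1 member upwards and 1 downwards, and for 8.86% and 10.5% of all genes.

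Dusp8 differed in pattern here. It had 8, 41 and 44 counts in miR-214-/- sham and 30, 37 and 7 in miR-214-/- Ang II, or 0.332, 1.90 and 1.57 CPM against 1.18, 1.34 and 0.305 CPM. The groups overlapped, with a log2 fold change of -0.40 (standard error 0.70, adjusted p = 0.836 from edgeR). The lowest library of each group, replicate 1 of sham and replicate 3 of Ang II, came closest to the WT sham level. Dusp10 was spread over 70.7 to 97.5 CPM in miR-214-/- sham and 51.6 to 86.5 CPM in miR-214-/- Ang II, in place of the tight WT groups. Dusp16 was between 5.23 and 7.06 CPM in miR-214-/- sham and between 4.36 and 6.75 CPM in miR-214-/- Ang II. The log2 fold changes of the 6 remaining members were -0.29 for Dusp2, 0.11 for Dusp5, -0.07 for Dusp6, 0.11 for Dusp7, -0.19 for Dusp10 and -0.05 for Dusp16, with adjusted p-values of 0.537 or more from edgeR.

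**Figure D3:**
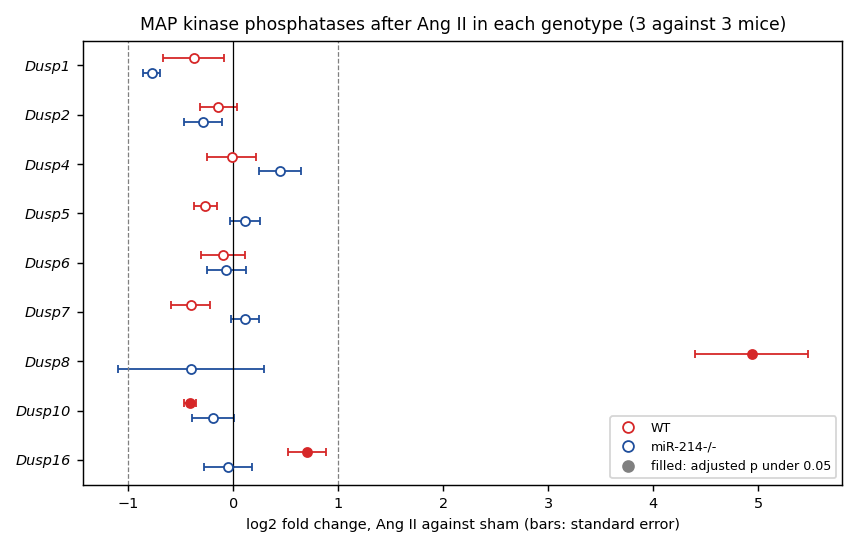
Log2 fold change of Ang II against sham for the 9 genes in WT (red) and miR-214-/- (blue), with bars for the standard error, filled points for an adjusted p under 0.05 from edgeR and dashed lines at the limit on the fold. In WT, Dusp8 lies at 4.94 beyond the line, and Dusp10 and Dusp16 are filled but within it. No point of miR-214-/- is filled.

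Between the genotypes, sham libraries were compared first. Of 15913 genes tested 0.0189% were called by edgeR, and 0 of the 8 members tested were among them (0 at an unadjusted p under 0.05, against 6.67% of all genes). Dusp8 fell under edgeR's filter on low counts in this comparison and had no test. Its 3 miR-214-/- sham libraries (8 to 44 counts) were all above the 3 WT sham libraries (2 to 5 counts), a ratio of 7.39 (95% exact interval 4.03 to 14.8, counting error only). Of all genes tested 5.39% had the miR-214-/- libraries above and 4.79% below. DESeq2, which called 0.289% of its genes, called Dusp8 with a log2 fold change of 2.87 and an adjusted p of 0.0488. edgeR without the filter gave 2.86 and an adjusted p of 0.232, so the call turned on the tool. The other 8 members had log2 fold changes between -0.31 (Dusp4) and 0.15 (Dusp16) and adjusted p-values of 0.863 or more from edgeR.

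After Ang II the order of Dusp8 between the genotypes was the opposite. The WT Ang II libraries held 431 counts of Dusp8 in all and the miR-214-/- Ang II libraries 74, without overlap and with a ratio of 0.181 (95% exact interval 0.140 to 0.232, counting error only). Its log2 fold change of -2.48 (standard error 0.58) had an unadjusted p of 0.00418 and an adjusted p = 0.569 from edgeR, which called 0% of 16215 genes (0 genes, with 1388 at an unadjusted p under 0.05). DESeq2 called 0.143% of its genes, Dusp8 among them with an adjusted p of 0.00308. Of the 9 members 4 had an unadjusted p under 0.05 in edgeR, namely Dusp1, Dusp5, Dusp8 and Dusp16, against 8.56% of all genes. Dusp16 was lower in every miR-214-/- Ang II library (at most 6.75 CPM) than in every WT one (at least 7.62 CPM), with a log2 fold change of -0.57. Dusp5 was higher in every miR-214-/- Ang II library, at least 35.2 CPM against at most 29.3 CPM in WT, with a log2 fold change of 0.45 (adjusted p = 0.569 from edgeR for both). Libraries of miR-214-/- Ang II lay above those of WT for 8.01% of all genes and below for 5.94%. The Ang II libraries of this comparison are also those of the comparisons with sham.

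Dusp7, the member with a miR-214-3p site, had mean levels of 43.5 ± 8.83 (SD, n = 3) in WT sham and 38.4 ± 2.55 CPM in miR-214-/- sham. After Ang II its means were 32.3 ± 6.02 CPM in WT and 41.4 ± 6.92 CPM in miR-214-/-. The genotypes overlapped in both conditions, with log2 fold changes of -0.18 in sham (adjusted p = 0.863 from edgeR) and 0.36 after Ang II (adjusted p = 0.582 from edgeR).

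Whether the response to Ang II itself differed between the genotypes was tested as their interaction over all 12 libraries. edgeR called 0.00596% of 16770 genes at an adjusted p under 0.05, and 0 of 9 members, of which 3 had an unadjusted p under 0.05 (Dusp7, Dusp8, Dusp16), as did 14.8% of all genes. Dusp8 had the largest interaction, a log2 fold change of -5.33 (standard error 1.01, unadjusted p = 0.00024, adjusted p = 0.213 from edgeR). DESeq2, which called 3.22% of its genes, gave -5.40 with an adjusted p of 5.21e-05. Without miR-214-/- Ang II replicate 1 edgeR gave -5.52 with an adjusted p of 0.0262, in a fit that called 5.35% of all genes. In the 11 other fits that left out a library the adjusted p from edgeR was between 0.0972 and 0.475. Dusp16 followed with an interaction of -0.74 (adjusted p = 0.282 from edgeR) and Dusp7 with 0.54 (adjusted p = 0.337 from edgeR). The interactions of the other 6 members were between -0.39 (Dusp1) and 0.48 (Dusp4).

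The level of Dusp8 was set beside the marker lists in each library. Dusp8 was highest in WT Ang II and lowest in WT sham. The summed cell cycle, red-cell precursor and neutrophil precursor markers were also highest on average in WT Ang II. So were basophil and mast cell, megakaryocyte and macrophage markers. Their means were 275 ± 121, 53.1 ± 6.54 and 1432 ± 1019 CPM there (SD, n = 3). In miR-214-/- Ang II they were 186 ± 65.8, 51.0 ± 5.68 and 1108 ± 356 CPM, and the libraries of the Ang II groups overlapped for each of these lists. Macrophage markers were at 2586, 654 and 1056 CPM in WT Ang II replicates 1 to 3. T cell and B cell markers were not highest in WT Ang II. The 8 cell cycle markers summed to 276 ± 32.1 CPM in WT sham, 1313 ± 103 CPM in WT Ang II, 489 ± 133 CPM in miR-214-/- sham and 740 ± 293 CPM in miR-214-/- Ang II (SD, n = 3). Within miR-214-/- Ang II they were at 1078 CPM in replicate 1, which had 1.18 CPM of Dusp8, and at 557 and 586 CPM in replicates 2 and 3, which had 1.34 and 0.305 CPM of Dusp8.

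Red-cell precursor markers were summed in 2 parts, a split chosen after their values were seen, because 4 globin genes made up most of the total in the libraries where it was highest. The other 7 genes, Klf1 and Epor among them, summed to 144 ± 22.4 CPM in WT sham and 1029 ± 223 CPM in WT Ang II, and to 266 ± 125 and 467 ± 237 CPM in the miR-214-/- sham and Ang II groups. Klf1, a transcription factor of red-cell precursors, was at 47.0, 172 and 137 CPM in WT Ang II replicates 1 to 3, and Epor, the receptor for erythropoietin, at 14.3, 50.1 and 44.0 CPM. Both were thus lowest in replicate 1 and highest in replicate 2, which is also the order of Dusp8 in that group. Group means of Epor were 4.2, 36.1, 11.5 and 14.7 CPM in WT sham, WT Ang II, miR-214-/- sham and miR-214-/- Ang II, where those of Dusp8 were 0.175, 5.36, 1.27 and 0.942 CPM. In WT sham, Klf1 was at 8.28, 23.7 and 11.0 CPM and Epor at 2.66, 6.90 and 3.05 CPM. Both were highest there in replicate 2, where Dusp8 was lowest at 2 counts. In miR-214-/- sham, Klf1 was at 12.3, 58.6 and 51.1 CPM, which is the order of Dusp8 in that group. In miR-214-/- Ang II, Klf1 was at 97.5, 21.3 and 11.6 CPM, lowest in replicate 3 as Dusp8 was, while its highest library was replicate 1 and that of Dusp8 replicate 2.

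The globins had another pattern over the libraries. They summed to 4751, 1263 and 449.8 CPM in WT Ang II and to 255, 4038 and 453 CPM in miR-214-/- Ang II, against 235 to 449.9 CPM in the sham libraries. Neutrophil precursor markers were at 3289, 1101 and 1572 CPM in WT Ang II and at 1234, 2986 and 625 CPM in miR-214-/- Ang II. T cell markers were between 3601 and 4318 CPM in the 3 WT Ang II libraries and miR-214-/- Ang II replicate 1, and between 4783 and 6216 CPM in the other 8 libraries. The part of dividing cells, red-cell precursors, neutrophil precursors or the other cell types in the level of Dusp8 was not tested.

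**Figure D4:**
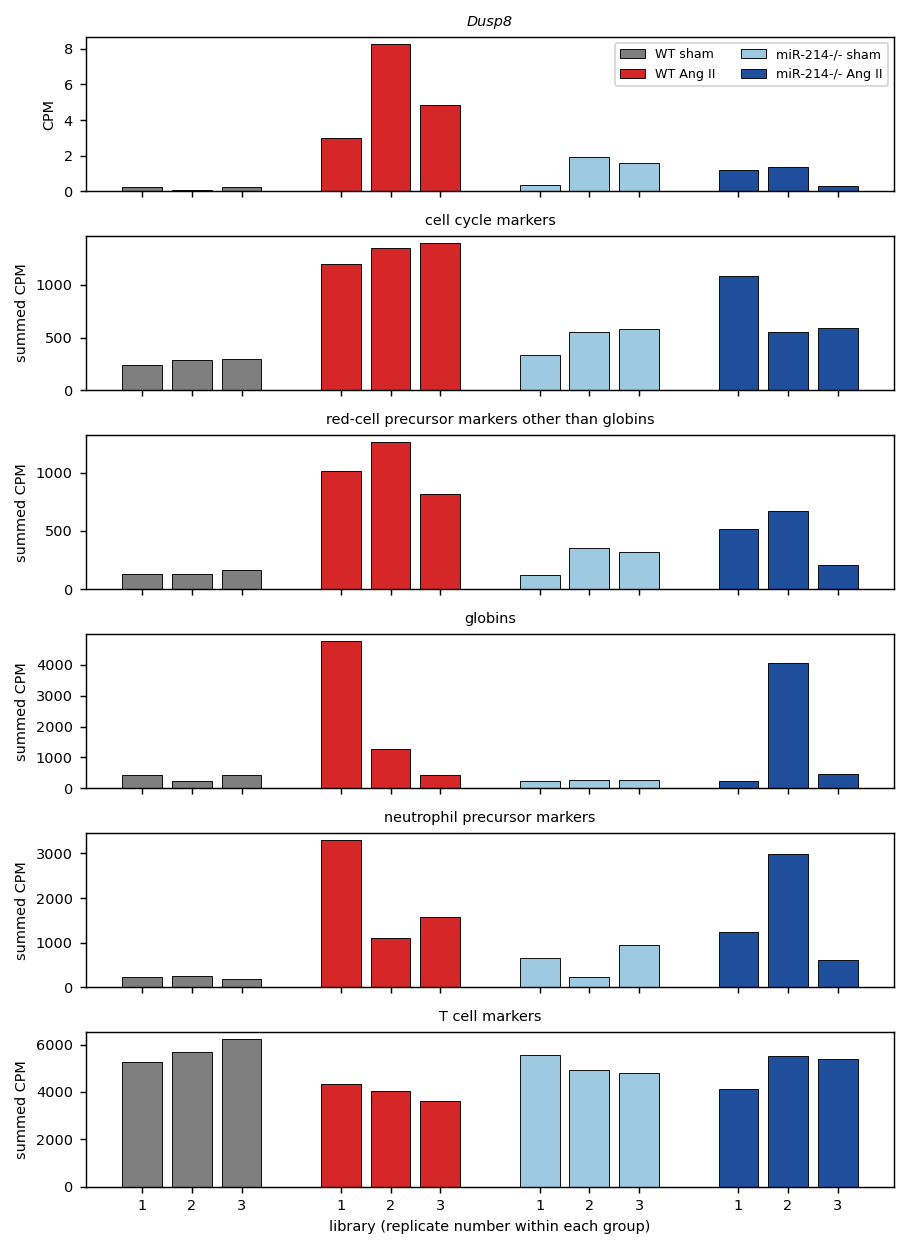
Bars from 0 for the CPM of Dusp8 and for the summed CPM of cell cycle markers, red-cell precursor markers other than globins, globins, neutrophil precursor markers and T cell markers in each of the 12 libraries, by group and replicate. Dusp8, cell cycle markers and the red-cell precursor markers other than globins are highest in the 3 WT Ang II libraries, while globins and neutrophil precursor markers are highest in WT Ang II replicate 1 and miR-214-/- Ang II replicate 2.

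The genes whose log2 CPM was most like that of Dusp8 over the 12 libraries, among 16770 genes, were Fn3k (Pearson's r = 0.97), Sh3yl1 (r = 0.96) and Ccne2 (r = 0.96). These values describe likeness among libraries that share groups and depth, and no test was made of them. Fn3k, which removes sugar from glycated proteins, had mean levels of 1.28 CPM in WT sham and of 9.48 CPM after Ang II in WT, and was at 2.81 and 3.20 CPM in the miR-214-/- sham and Ang II groups. Ccne2, a cyclin of the entry into DNA synthesis, was at 6.27, 31.4, 12.7 and 13.6 CPM in the same order of groups. Sh3yl1, which binds membrane lipids, was at 0.902, 3.64, 1.92 and 2.04 CPM.

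Other phosphatases and the kinases they act on were described from lists. Of 18 further phosphatases, which were other dual-specificity genes and the tyrosine phosphatases that bind MAP kinases, 13 were tested in WT and 1 was called higher after Ang II. This was Dusp3, a small phosphatase of ERK and JNK, which went from 3.84 ± 0.54 to 7.83 ± 2.77 CPM (log2 fold change 1.05, adjusted p = 0.049 from edgeR). Of all genes tested in WT 7.01% were called higher. The median log2 fold change of the 13 tested phosphatases was 0.16. Dusp9, the close relative of Dusp6 and Dusp7, had a log2 fold change of 0.16 (adjusted p = 0.823 from edgeR). In the ERK cascade 0 of 15 genes were called in WT (median -0.06). An adjusted p under 0.05 from edgeR was reached by 18.8% of all genes in WT and by 3 of this cascade. These were the kinase Mapk3 (0.57), the GTPase Hras (0.51) and the exchange factor Rasgrp1 (-0.64), which were chosen after their values were seen. In the JNK and p38 cascades 1 of 14 tested genes was called higher, against 7.01% of all genes. This was the p38 kinase Mapk13, with a log2 fold change of 2.68 (adjusted p = 0.0235 from edgeR) from a low level of 0.422 ± 0.261 CPM in WT sham. Map2k3, which activates p38, and Map3k1, an upstream kinase of JNK, also had an adjusted p under 0.05 in WT, at 0.66 and -0.31. With Mapk13 these were 3 of the 14 tested genes, against 18.8% of all genes. Map2k3 and Map3k1 were named after their values were seen. In miR-214-/- 0 genes of these 3 lists were called or had an adjusted p under 0.05 from edgeR. The same held for all 15937 genes tested there. Medians of the 3 lists were 0.16, -0.01 and 0.05.

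Of 22 tested genes that MAP kinases are known to switch on, 0 were called in WT and 6 had an adjusted p under 0.05. Of these 6, 5 were lower and 1 higher after Ang II, and 18.8% of all genes had such an adjusted p. The median log2 fold change of the 22 was -0.10, with 7 above 0. The 5 were Junb (-0.97), Jun (-0.89) and Jund (-0.70), which are parts of AP-1, with Phlda1 (-0.62) and Ier2 (-0.54), and the 1 was Spred1 (0.73), an inhibitor of the ERK cascade. All 6 were chosen after their values were seen. Junb went from 784 ± 137 to 396 ± 21.9 CPM and Jun from 300.4 ± 55.5 to 160.2 ± 4.61 CPM (SD, n = 3). In miR-214-/- mice 0 of the 22 had an adjusted p under 0.05, with a median of -0.24 and 3 above 0, and with Junb at -0.60 and Jun at -0.68. The summed level of this list of 23 genes was between 1998 and 2727 CPM in WT sham and between 1438 and 1524 CPM in WT Ang II. It was between 1916 and 2319 CPM in miR-214-/- sham and between 1470 and 1673 CPM in miR-214-/- Ang II. These sums weigh genes by their level, and Junb, Jund and Jun had the highest levels of the list in WT sham. The 9 phosphatases summed to 522 ± 76.6 CPM in WT sham and 433 ± 48.4 CPM in WT Ang II, and to 526 ± 23.4 and 424 ± 65.0 CPM in the miR-214-/- groups. Dusp1 and Dusp2 hold most of these sums.

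**Figure D5:**
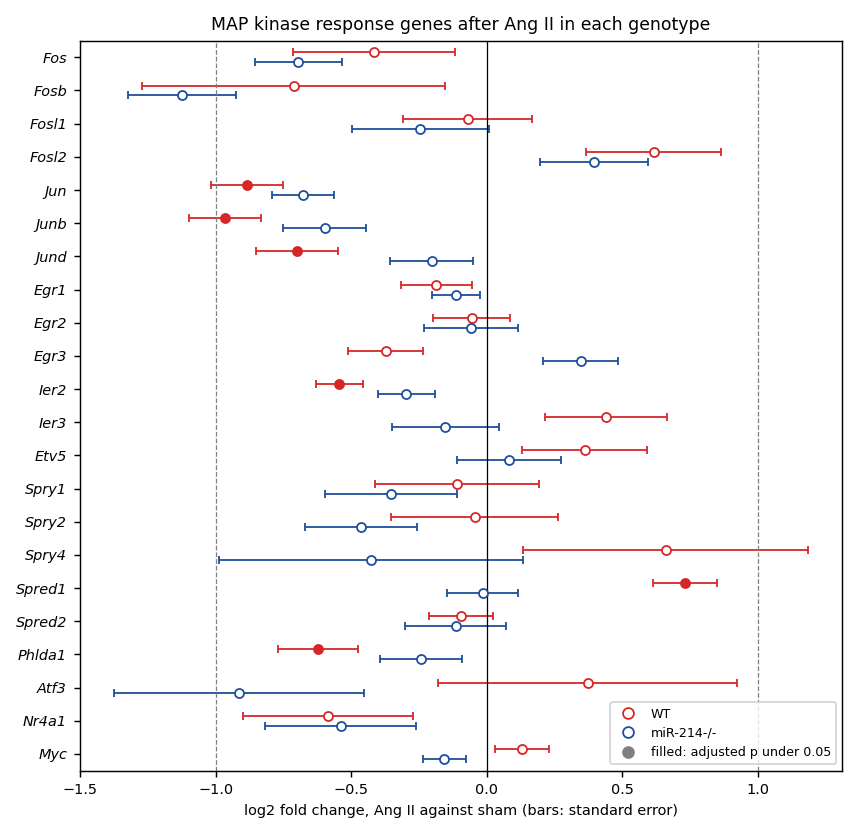
Log2 fold change of Ang II against sham for 22 genes that respond to MAP kinases, in WT (red) and miR-214-/- (blue), with bars for the standard error, filled points for an adjusted p under 0.05 from edgeR and dashed lines at the limit on the fold. The 6 filled points are all of WT, of which Junb lies lowest at -0.97 and Spred1 above 0 at 0.73.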

How the data were processed

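Raw read counts per gene, as deposited, were used for 12 libraries. According to the methods, the authors trimmed paired reads, mapped them to GRCm38 with STAR and counted unique exonic reads with featureCounts (Subread 1.5.2 per the labels). The strand setting and the annotation release were not given in the sources used here. Symbols and exon lengths came from GENCODE M21, and 49056 of 49315 identifiers matched. The 259 others held 0.0245% of counts. Totals were 21126874 to 29605988. No 2 libraries were identical, and replicates differed by more than sampling noise.

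Counts were tested over all genes with edgeR 4.0.16 in R 4.3.3 (filterByExpr, TMM, quasi-likelihood test, Benjamini-Hochberg adjustment) and also with DESeq2 1.42.0. Calls needed an adjusted p of under 0.05 and a log2 fold change beyond 1 or -1, for the interaction the former alone. The code was tested on simulated data. Fits between 2 groups used those 6 libraries. Named genes were the 9 members, up to 4 called genes with the largest change per list, and the 3 genes most like a called member. Genes named outside this rule were chosen after their values were seen. They were uncalled list genes with an adjusted p under 0.05, Dusp9, and red-cell genes beside Dusp8. The members and lists were chosen with earlier results of these data known. P-values measure the spread between single mice.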

Additional observations from a re-analysis of the deposited data

How the results depend on the processing

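Dusp8 in WT was the only member called by the main settings, and its call held under RLE scaling, library size alone, no filter, the adjusted-deviance fit, DESeq2, 1 fit over 12 libraries and each left-out library. A filter of 10 counts in every library removed the gene and left 0 members called in WT, while the adjusted p alone gave 3. DESeq2 called 1 member, Dusp8, in both genotype comparisons and for the interaction, where edgeR called 0. Leaving out 1 library gave 0 to 1 members for the interaction, with 1 without miR-214-/- Ang II replicate 1. Over all genes DESeq2 called 51 after Ang II in miR-214-/-, 45 by genotype in sham, 21 by genotype after Ang II and 444 for the interaction. Without a filter edgeR called 3 in miR-214-/- and 9 by genotype in sham, where 1 fit over 12 libraries called 0 against 3 by the pairwise fit. Without miR-214-/- Ang II replicate 1 the interaction gave 919 genes against 1. Left-out libraries gave 564 to 1338 genes in WT (564 without WT sham replicate 1, 605 without WT sham replicate 3, 599 without WT Ang II replicate 3) and 0 to 30 between the sham groups.

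The labels give replicate numbers but state no pairing of the mice. Same-numbered libraries correlated at 0.20, 0.11 and -0.14 in WT and below 0 in miR-214-/-. Differently numbered libraries in WT ran from -0.23 to 0.20, so these values cannot decide whether mice were paired. With the replicate block Dusp8 in WT stayed at 4.84 (adjusted p = 0.0126 from edgeR), Dusp16 had an adjusted p of 0.0521 from edgeR, and Dusp4 in WT was at 0.025. The block left 966 genes called in WT and 0 between the sham groups.

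Signs changed only for members that were not called. Dusp4 in WT (-0.02) was 0.019 by library size alone and 0.0075 without a filter, and the Dusp6 interaction (0.05) was -0.020 by library size alone. Over the fits without 1 library, log2 fold changes in WT ran from -0.61 to 0.017 for Dusp1, from -0.15 to 0.27 for Dusp4 and from -0.31 to 0.027 for Dusp6. In miR-214-/- they ran from -0.021 to 0.24 for Dusp5, from -0.18 to 0.12 for Dusp6 and from -0.18 to 0.11 for Dusp16. Between the sham groups the ranges were -0.19 to 0.44 for Dusp1, -0.021 to 0.12 for Dusp2, -0.078 to 0.18 for Dusp5, -0.12 to 0.14 for Dusp6 and -0.19 to 0.046 for Dusp10. Between the Ang II groups they were -0.28 to 0.15 for Dusp2 and -0.056 to 0.30 for Dusp6, and for the interaction -0.34 to 0.092 for Dusp2 and -0.079 to 0.26 for Dusp6. Where the tool, the block or a left-out library moved a count, the cause was not tested. The 2 to 5 counts of Dusp8 per WT sham library limit the precision of its fold.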
